A study of Homo sapiens with 8 samples.

Results

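The zinc finger gene clusters of human chromosome 19 were described here through 2261 tiles, each a 1-kb stretch of DNA with at least 3 measured CpGs. They were taken by position and not by their methylation values: every such tile of hg19 chr19:20000000-24600000, called the first window, and of chr19:52000000-58900000, called the second window. The windows themselves were chosen with earlier results of these data known. Short stretches at chr19:54040000-54043000 and chr19:57348000-57354000, which hold 3 tiles, were left out. A CpG counted when it had at least 10 reads on days 0, 1, 2, 6 and 7. The first window gave 539 tiles and the second 1722, together holding 20693 CpGs, of 263521 autosomal tiles in all. The rest of chromosome 19, the part the clusters are set against, held 14023 tiles.

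The DNA came from the human embryonic stem cell line HUES64, in a derivative labelled as a DNMT1 knockout in every library, day 0 included. The course followed withdrawal of DNMT1*, an exogenous and repressible copy of the enzyme, and there is 1 library for each day from day 0 to day 7. Methylation was read by reduced representation bisulfite sequencing (RRBS), which cuts DNA at CCGG with MspI and so favours CpG-rich sequence. All 8 libraries belong to 1 course of 1 derivative, so each p below covers the spread of days around a trend and not the variation between courses. Nor does RRBS measure the enzyme, so the withdrawal itself was not checked. Days 0, 1, 2, 6 and 7 were sequenced deeply, to between 77691782 and 161534152 read calls over CpGs (median depth 21 to 44). Days 3, 4 and 5 were shallow, at 12359218 to 15156251 calls (median depth 4), and enter the tests only as an alternative.

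DNMT1 restores the methylation of newly made strands when DNA is replicated, so its loss dilutes methylation as cells divide. Human chromosome 19 carries large arrays of KRAB zinc finger genes that arose by tandem duplication. Their products bind DNA through rows of near-identical fingers and, through the KRAB domain, recruit the corepressor TRIM28 to transposable elements. The gene bodies are known for broad H3K9me3 over the exons that code for the fingers. The left-out stretches lie at the imprinted regions of ZNF331 and PEG3.

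The sequences below are the promoters of 4 zinc finger genes, shown because they span the starting states found in the clusters: ZNF835 and ZNF880 started highly methylated, ZNF726 intermediate and ZNF580 unmethylated. They are 300 bases from RefSeq on GRCh38.p14, 250 before and 50 after the gene's start, 5′ to 3′ on the strand of the gene. ZNF835 is at chr19:56671708-56672007 on the minus strand. ZNF880 is at chr19:52369673-52369972, ZNF726 at chr19:23914636-23914935 and ZNF580 at chr19:55640752-55641051, all 3 on the plus strand of that build. Capitals mark the CpGs that the deposited libraries list, which are 22 of 29 in ZNF835, 15 of 20 in ZNF880, 12 of 16 in ZNF726 and 28 of 35 in ZNF580.
ZNF835: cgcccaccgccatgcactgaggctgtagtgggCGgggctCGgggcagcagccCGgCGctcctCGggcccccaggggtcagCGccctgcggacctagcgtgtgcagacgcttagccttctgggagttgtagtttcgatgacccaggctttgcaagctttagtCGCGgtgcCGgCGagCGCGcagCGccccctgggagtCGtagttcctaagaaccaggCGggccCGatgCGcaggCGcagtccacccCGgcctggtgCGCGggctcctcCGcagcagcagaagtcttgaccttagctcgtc
ZNF880: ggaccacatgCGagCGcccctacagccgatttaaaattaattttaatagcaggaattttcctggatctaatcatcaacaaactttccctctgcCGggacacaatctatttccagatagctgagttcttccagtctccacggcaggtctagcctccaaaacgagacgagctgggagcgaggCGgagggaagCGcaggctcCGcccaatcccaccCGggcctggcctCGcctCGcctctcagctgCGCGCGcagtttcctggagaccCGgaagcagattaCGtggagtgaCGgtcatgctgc
ZNF726: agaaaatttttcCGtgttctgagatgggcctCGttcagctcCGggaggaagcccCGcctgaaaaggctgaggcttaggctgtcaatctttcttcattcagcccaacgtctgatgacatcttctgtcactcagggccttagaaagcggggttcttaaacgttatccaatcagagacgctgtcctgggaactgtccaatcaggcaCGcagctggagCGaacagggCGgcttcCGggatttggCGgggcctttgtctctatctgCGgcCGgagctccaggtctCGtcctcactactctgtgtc
ZNF580: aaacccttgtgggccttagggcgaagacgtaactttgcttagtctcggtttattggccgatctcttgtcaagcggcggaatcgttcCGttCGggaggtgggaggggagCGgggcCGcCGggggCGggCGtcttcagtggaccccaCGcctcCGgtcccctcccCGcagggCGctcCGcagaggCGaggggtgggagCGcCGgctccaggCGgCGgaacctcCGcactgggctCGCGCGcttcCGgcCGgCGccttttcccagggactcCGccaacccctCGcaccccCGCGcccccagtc
These promoters were found in the hg19 tables from the spacing of their CpGs alone, with no conversion of coordinates. The listed CpGs of ZNF835 stand at hg19 chr19:57183106-57183343, those of ZNF880 at chr19:52872936-52873215, those of ZNF726 at chr19:24097450-24097719 and those of ZNF580 at chr19:56152204-56152408.

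The label of the clusters was checked against the order of RefSeq protein-coding genes. Zinc finger genes made up 31 of 33 genes from ZNF682 to ZNF726 in the first window. In the second window they made up 35 of 42 from ZNF615 to ZNF813 and 67 of 97 from ZNF628 to ZNF837. Between ZNF813 and ZNF628, however, 1 of 73 genes was a zinc finger gene. That stretch runs in hg19 between the placed promoters of the flanking genes, chr19:53971036-55987801, and holds 711 tiles, 41.3% of those in the second window. Values are therefore given for both windows whole, and also for the 1550 tiles outside it, called the zinc finger rich parts. The rest of chromosome 19 is not free of such genes either, since 3303 of its 14023 tiles lie within 250 kb of a placed zinc finger promoter.

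Most zinc finger tiles started methylated. By the pooled reads of days 0 and 1, 766 tiles (33.9%) stood at 80% or more and are called highly methylated, 1222 (54.0%) stood between 20% and 80%, and 273 (12.1%) stood at 20% or less. In the rest of chromosome 19 these shares were 40.9%, 45.9% and 13.2%. The intermediate tiles of the clusters sat near the upper limit of their class, with 86.4% of them at 60% or more and a median of 72.3%. On day 0, 12.3% of them held CpGs both at 80% or more and at 20% or less, against 15.6% of such tiles in the rest. The first window had few tiles at 20% or less, 27 of 539 (5.0%), while the second had 246 of 1722 (14.3%).

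Methylation fell through the whole course in both windows. The mean of the first window was 73.5%, 69.8%, 62.3%, 45.2%, 32.1%, 26.8%, 17.1% and 14.1% on days 0 to 7. In the second window it was 65.7%, 62.4%, 54.7%, 38.5%, 27.7%, 22.5%, 15.8% and 13.3%. Every day stood below the day before in both, and on day 7 the first window kept 19.2% and the second 20.2% of the day 0 mean. Over the 5 deep libraries the mean of all 2261 tiles changed by -8.48 ± 0.58 percentage points per day (SE, n = 5 days), with an exact two-sided permutation p of 0.0083, the smallest that 120 orders of the days can give. A mean of this kind averages over cells and alleles, so fewer methylated cells and less methylation per cell cannot be told apart.

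Loss was slow at first. Highly methylated zinc finger tiles kept 95.5% of their level in the step to day 1, 87.8% in the step to day 2, 29.6% over the 4 days to day 6 and 82.8% in the last step. Their mean was 86.6%, 82.6%, 72.6%, 52.9%, 38.0%, 31.3%, 21.5% and 17.8% on days 0 to 7. Intermediate tiles had 70.1%, 66.2%, 58.5%, 41.2%, 29.5%, 24.0%, 16.2% and 13.6%. Tiles at 20% or less averaged 3.33% at the start (day 0), then 2.56% (day 2) and at last 0.776% (day 7). The counting error of these class means was at most 0.12 points on the deep days and 0.34 points on days 3 to 5, so the day-to-day differences of the methylated classes were far larger than it.

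**Figure D1:**
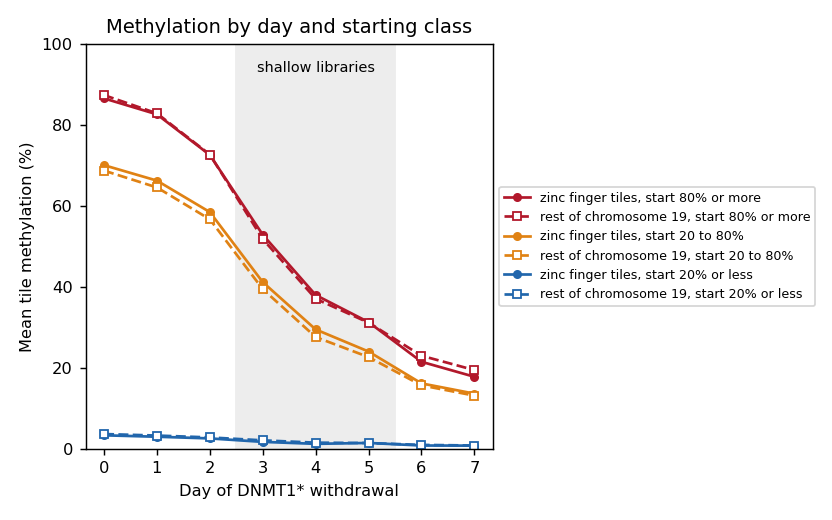
Mean tile methylation (%, vertical axis) by day of DNMT1* withdrawal (horizontal axis) for zinc finger tiles (solid lines, filled circles) and the rest of chromosome 19 (dashed lines, open squares) in 3 starting classes, 1 library per day, with days 3 to 5 shaded as shallow. Highly methylated zinc finger tiles end at 17.8% and those of the rest at 19.4%, and up to day 5 the lines of each class lie within 2 points of each other.

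Tile by tile, 2115 of 2261 zinc finger tiles (93.5%) fell over the days in a moderated quasi-binomial test with Benjamini-Hochberg adjusted p below 0.05, against 91.8% of all autosomal tiles. No zinc finger tile rose. The share of rising tiles over all autosomes was 0.0918%, and in the clusters 0 tiles rose also at an unadjusted p under 0.05, with limma on arcsine square-root levels or without moderation. With day 0 left out, or with 20 reads per CpG, 1 tile rose. All 766 highly methylated and all 1222 intermediate tiles fell, where the background was 100% for both classes. Among tiles at 20% or less, 127 of 273 (46.5%) fell, set beside 33.3% of all autosomal tiles of that class and 44.9% in the rest of chromosome 19. None of the 273 rose, where 0.752% of autosomal tiles of that class did. The median fitted change was -64.8 points for zinc finger tiles and -65.1 points for all autosomal tiles tested. For the methylated classes the counts equal the background.

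To ask whether zinc finger tiles lose methylation at another rate, each was set beside tiles of the rest of chromosome 19 with the same starting level, in steps of 5 points, and the same class of CpG count. The starting level pools days 0 and 1, so closeness on those 2 days is set by the matching. Highly methylated zinc finger tiles were close to the matched rest on day 2 and stood lower at the end. Their levels on days 0, 1, 2, 6 and 7 were 86.6%, 82.6%, 72.6%, 21.5% and 17.8%, against 86.8%, 82.3%, 72.2%, 22.3% and 18.8% in 5740 matched tiles. They thus stood 0.375 points above the matched tiles on day 2, and 1.03 points below them on day 7, at 94.5% of the matched level. The log of the ratio changed by -0.0083 ± 0.0018 per day (SE, n = 5 days), with an exact two-sided permutation p of 0.05, not below the threshold, and an adjusted p of 0.128.

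Intermediate zinc finger tiles lay close to their matched tiles on all 5 days. They had 70.2%, 66.3%, 58.6%, 16.2% and 13.7% on the same days, against 70.2%, 66.0%, 58.0%, 16.1% and 13.5% in 6329 matched tiles. Their ratio changed by 0.0011 ± 0.00063 per day (exact permutation p = 0.217). With all tiles at 20% or more together, the change was -0.0032 ± 0.0011 per day (exact permutation p = 0.117). The difference between the 2 classes, highly methylated over intermediate, was -0.0094 ± 0.0015 per day (exact permutation p = 0.0167), and its p became 0.128 when adjusted. In all, 11 such differences were tested, 2 had an unadjusted p under 0.05, and none did after adjustment over the 11, where the lowest value was 0.128. The smallest exact permutation p that 120 orders of the days can give is 0.0083. A difference at that value could not pass this adjustment by itself, whatever its size. Not passing is therefore no evidence that a difference is absent. Set against matched tiles of the other autosomes in place of chromosome 19, highly methylated zinc finger tiles changed by -0.00584 per day (exact permutation p = 0.0333), and intermediate ones turned to -0.00765 per day (exact permutation p = 0.05). The difference between these classes then turned to 0.00181 per day (exact permutation p = 0.0833), so its direction depends on the reference.

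The first window stood further from its matched tiles than the second. Its 188 highly methylated tiles had 85.9%, 82.1%, 72.9%, 19.99% and 16.4% on days 0, 1, 2, 6 and 7, against 86.3%, 81.9%, 72.0%, 21.7% and 18.2% in the matched rest. They were at 101.3% of the matched level on day 2 and at 89.96% on day 7. The 578 of the second window had 86.8%, 82.8%, 72.5%, 22.0% and 18.3%, against 87.0%, 82.4%, 72.3%, 22.5% and 19.02%, and ended at 96.0% of the matched level. The log ratio changed by -0.0165 ± 0.0034 per day in the first window (exact permutation p = 0.075) and by -0.0058 ± 0.0014 in the second (exact permutation p = 0.0417), both with an adjusted p of 0.128. Set directly against the second window at equal start and CpG count, highly methylated tiles of the first changed by -0.0123 ± 0.0023 per day (exact permutation p = 0.0667), so a difference between the windows did not pass. For all tiles at 20% or more, the values were -0.0068 ± 0.0023 per day in the first window, -0.0020 ± 0.00067 in the second and -0.0063 ± 0.0019 for the first over the second (exact permutation p = 0.108, 0.108 and 0.0833).

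The stretch between ZNF813 and ZNF628, nearly free of zinc finger genes, was separated after values along the chromosome had been seen, so the next values have no test. In the zinc finger rich parts, 527 highly methylated tiles had 73.1%, 21.03% and 17.5% on days 2, 6 and 7, against 72.5%, 22.4% and 18.9% in the matched rest. In the stretch itself, 239 tiles had 71.4%, 22.5% and 18.5%, against 71.7%, 22.1% and 18.7%. On day 7 the rich parts were at 92.4% of the matched level and the stretch at 99.3%. The rich parts include the 188 tiles of the first window, and their second-window tiles have no matched value of their own. In 500-kb bins, without matching, these lay on both sides of the 21.5% of day 0 that the stretch kept on day 7. Bins from 52.5 to 54 Mb kept 22.7%, 22.1% and 21.8%, and that from 58 to 58.5 Mb kept 23.6%. The other rich bins of the second window kept 17.5% to 20.9%. The log ratio changed by -0.0125 ± 0.0025 per day in the rich parts and by 0.00079 ± 0.0020 in the stretch. The values of the whole second window average over both.

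**Figure D2:**
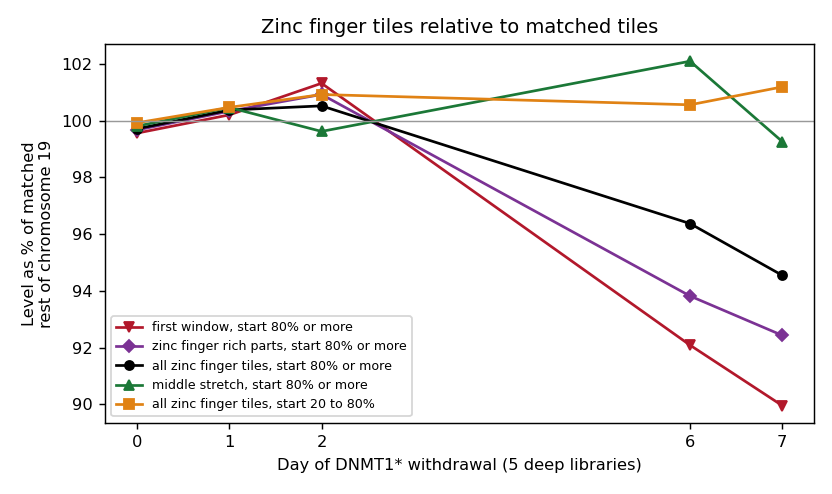
Level of zinc finger tiles as a percentage of the matched rest of chromosome 19 (vertical axis, not starting at 0) on the 5 deep days (horizontal axis), with 1 line for each set of tiles. Ratios lie near 100% up to day 2, where days 0 and 1 are held there by the matching. By day 7 the highly methylated tiles of the first window reach 89.96% and those of the rich parts 92.4%, while the middle stretch between ZNF813 and ZNF628 (99.3%) and the intermediate tiles (101.2%) stay close to 100%.

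Highly methylated tiles were averaged in 500-kb bins with at least 10 of them. In the first window, 20.5 to 21 Mb and the end past 24.5 Mb had fewer and are not covered. Along the chromosome the lower late level of the first window was seen in each bin that could be averaged. The 8 bins of the first window kept 17.5% to 21.5% of day 0 on day 7, with a median of 19.3%, and all 8 lay below the median bin of the rest of chromosome 19 (21.6%). The 14 bins of the second window kept 17.5% to 23.6%, with a median of 20.7%, and 8 of them lay below 21.6%. The 89 bins of the rest ran from 15.99% to 25.8%, so every zinc finger bin lay within their range. For day 2 the medians ran in the opposite order, with 84.3% in the first window, 83.6% in the second and 83.1% in the rest.

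**Figure D3:**
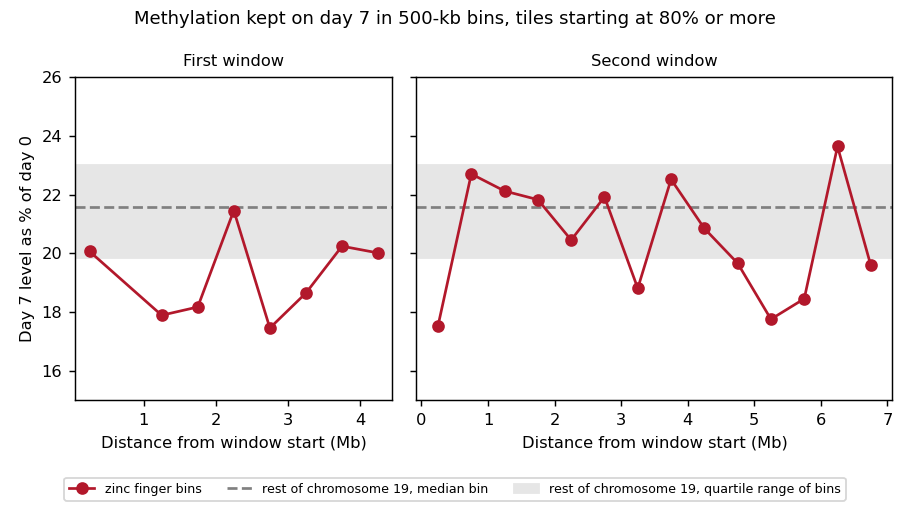
Day 7 level as a percentage of day 0 (vertical axis, not starting at 0) in 500-kb bins of highly methylated zinc finger tiles, by distance from the start of each window in Mb. The dashed line and grey band give the median and quartile range of the bins of the rest of chromosome 19. All 8 bins of the first window lie below the dashed line, and 8 of 14 do in the second window.

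Single tiles spread widely around these means. Highly methylated zinc finger tiles kept a median of 20.1% of day 0 on day 7, with quartiles of 16.5% and 23.5% and a range of 3.24% to 53.8%. In the rest the median was 21.3%, with quartiles of 16.9% and 26.6%. In the clusters 46 of 766 tiles (6.01%) kept over 30%, against 11.7% in the rest weighted to the same starting levels and CpG counts. That share was 3.19% in the first window (6 of 188) against 9.90%, and 6.92% in the second (40 of 578) against 12.2%. These shares were taken against the rest of chromosome 19 only, which had the wider spread. Without matching, the upper quartile of the day 7 level was 20.4% in the clusters, 21.7% in the other autosomes and 23.5% in the rest. On day 7 the SD between zinc finger tiles was 5.59 points, above the median counting error of 2.09 points per tile. It was 5.80 points in the other autosomes and 6.73 points in the rest. Across these 766 tiles the levels of days 6 and 7 had a Pearson correlation of 0.653, a description over tiles that share both libraries.

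Within the clusters, the share kept differed by more percentage points between classes of CpG number on day 2 than on day 7. Shares were far lower on day 7, so in proportion to them the differences were not smaller. On day 2, highly methylated zinc finger tiles kept 82.3% of day 0 with 3 to 4 CpGs, 83.7% with 5 to 9, 85.1% with 10 to 19, 86.9% with 20 to 39 and 88.8% with 40 or more. In the rest, the same classes kept 82.2%, 83.1%, 84.03%, 85.9% and 86.8%. On day 7 the clusters kept 20.3%, 20.9%, 20.7%, 20.4% and 19.2%, with no steady rise over the classes. The rest kept 21.8%, 22.5%, 23.1%, 21.3% and 18.4%, and so varied over the classes by about as many points on day 7 as on day 2. Zinc finger tiles were lower than the rest on day 7 in each class under 40 CpGs and higher in the densest one. That class holds only 14 zinc finger tiles, against 64 in the rest. Its 6 tiles of the first window kept 20.2% and its 8 of the second 18.4%, the latter about as the rest.

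**Figure D4:**
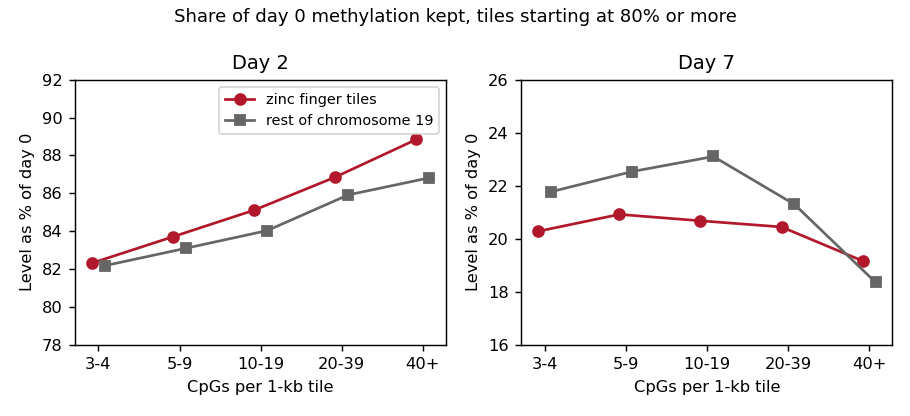
Level as a percentage of day 0 (vertical axes, not starting at 0) on day 2 (left) and day 7 (right) by number of CpGs per tile, for highly methylated zinc finger tiles (red circles) and the rest of chromosome 19 (grey squares). Kept methylation climbs with CpG number on day 2, to 88.8% in the clusters. On day 7 it shows no steady rise in the clusters and lies between 19.2% and 20.9%.

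A zinc finger with its linker is coded by 84 bp, so rows of fingers can place CpGs at that distance. In the first window 171 pairs of listed CpGs stood exactly 84 bp apart, against a mean of 130 at the other distances from 78 to 90 bp, a ratio of 1.31, though the highest of those distances held 170. The ratio was 1.10 in the second window (579 pairs against 524) and 1.02 in the rest (5255 against 5138). There another distance held more pairs than 84 bp, with 602 in the second window and 5434 in the rest. Tiles rich in such pairs, with at least 3 and at least 3 times the local mean, numbered 20 of 2261 in the clusters (0.885%), against 56 of 14023 in the rest (0.399%). Of the 20, 14 were highly methylated, 3 intermediate and 3 at 20% or less. Set against other zinc finger tiles of equal start and CpG count, the 17 methylated ones changed by -0.0149 ± 0.0039 per day on the log ratio (exact permutation p = 0.0917, adjusted p = 0.128), so a difference did not pass. With 2 pairs taken as enough, the value turned to 0.00169.

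The tiles with the most such pairs all started near 90%. The tile at hg19 chr19:58879001-58880000, with 62 CpGs and 17 pairs, had 91.4%, 84.4%, 81.6%, 65.1%, 43.2%, 29.4%, 19.9% and 14.9% on days 0 to 7. At chr19:57133001-57134000, with 38 CpGs and 15 pairs, the levels were 89.7%, 90.4%, 85.3%, 67.7%, 43.8%, 30.4%, 25.4% and 23.3%. The tile at chr19:57175001-57176000 had as many CpGs and pairs, and 89.6%, 86.5%, 83.8%, 61.2%, 36.9%, 20.1%, 21.6% and 12.2%. On day 2 they kept 89.2%, 95.1% and 93.5% of day 0, all 3 above the 83.9% of all highly methylated zinc finger tiles. Most of those hold far fewer CpGs. With 40 or more CpGs, as in the first of the 3, such tiles kept 88.8%, and with 20 to 39, as in the others, 86.9%. On day 7 the 3 tiles kept 16.3%, 26% and 13.6%, on both sides of the 20.6% of all highly methylated zinc finger tiles.

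Tiles with the highest and lowest share kept on day 6, a library that chose them, were followed in the others. In the second window the highest was at chr19:58806001-58807000, with 93.02%, 86.2%, 82.7%, 59.0%, 12.5%, 56.5%, 49.1% and 42.5% on days 0 to 7. Its day 7 level came from 351 reads (Wilson 95% interval 37.4% to 47.7%), and it kept 45.6% of day 0. The next, at chr19:56672001-56673000 and chr19:52709001-52710000, kept 30.8% and 24.96% on day 7, against 48.6% and 48.1% on day 6. In the first window the highest on day 6 were at chr19:20742001-20743000, chr19:20113001-20114000 and chr19:21444001-21445000, which kept 24.1%, 31.1% and 23.5% on day 7. On day 6 those of the first window had kept 32.8% to 33.3%. For all the tiles named here the Wilson 95% interval reached to either side by a median of 2.5 points on the deep days and 9.98 points on days 3 to 5. Such intervals, and any limit set by a count of 0, cover counting error only, since these reads carry no molecular identifiers and copies of 1 molecule can be counted repeatedly.

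The lowest tiles of day 6 mostly remained low on day 7, with 4 of 6 under the lower quartile of highly methylated zinc finger tiles (16.5%). At chr19:24060001-24061000, chr19:23076001-23077000 and chr19:22039001-22040000 in the first window, 13.2%, 15.3% and 11.8% were kept on day 7, against 8.91%, 11.0% and 12.8% on day 6. The lowest of the second window, at chr19:58036001-58037000, chr19:52217001-52218000 and chr19:56739001-56740000, kept 19.1%, 17.5% and 14.1% on day 7, against 10.1%, 10.9% and 12.8% on day 6. Of these 6 tiles, 5 were higher relative to day 0 on day 7 than on day 6. All 6 were chosen for low values on day 6, so that count cannot show a regain of methylation. The reads behind each on day 7 numbered 138 to 735.

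The CpG-richest tiles outside the high class covered the other starting states. Among intermediate tiles, those at chr19:21769001-21770000 and chr19:22883001-22884000 in the first window had 11.4% and 15.3% on day 7, against 68.1% and 81.3% on day 0. In the second window the tile at chr19:54976001-54977000, with 63 CpGs, had 32.6%, 23.9% and 2.27% on days 0, 2 and 7. The tile at chr19:55895001-55896000, with 66 CpGs, holds the promoter of TMEM238, a transmembrane protein gene, and had 20.8%, 19.6% and 2.97% on those days. Among tiles at 20% or less, chr19:22034001-22035000 had 3.79% on day 7, against 9.36% on day 0, and fell in the moderated quasi-binomial test, with a fitted change of -6.30 points (adjusted p = 0.000582). At chr19:23941001-23942000 the level was 0.236% on day 7, against 0.856% on day 0, and at chr19:54485001-54486000 it was 1.28%, against 3.45%. Both passed that test, with adjusted p of 0.0255 and 0.00107. The tile at chr19:56632001-56633000, with 71 CpGs, holds the promoter of the zinc finger gene ZNF787. It had 0 of 3592 reads methylated on day 7, against 0.046% of 4348 on day 0, and did not pass the test (adjusted p = 0.249).

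The promoters of zinc finger genes that could be measured were mostly unmethylated from the start. By the strict placement rule, with at least 8 listed CpGs and 60% of the promoter's CpGs, 28 starts of 25 listed genes were placed and measured. Of these, 3 were highly methylated (ZNF880, ZNF534 and ZNF835), 4 were intermediate (ZNF726, ZNF415 and both starts of ZNF135) and 21 stood at 20% or less. A wider rule, with 7 CpGs and 30%, was chosen after the data were seen and gave 60 measured starts of 54 genes, with 5 high, 6 intermediate and 49 low. It added ZNF528 and ZNF667 to the first group and ZNF724 and a start of ZSCAN18 to the second. The listed genes have 133 starts, most of which were not measured. Placement needs many listed CpGs, and placed promoters had a median of 25 CpGs, against 21 over all 133. All 886 placements of the wider rule on chromosome 19 fell on the strand RefSeq gives. The motif CCGG, the site of MspI and its own reverse complement, is in 63.1% of all 35116 RefSeq promoters of the same length, in 79.2% of those of chromosome 19 and in 92.5% of those of the listed zinc finger genes.

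The 5 highly methylated promoters lie in the second window, where 56 of the 60 measured starts are. In the first window only 4 of 23 listed starts were measured, 2 intermediate and 2 low, too few to compare the windows. ZNF880 had 89.0%, 85.8%, 82.6%, 65.5%, 46.6%, 28.4%, 25.5% and 16.4% on days 0 to 7. ZNF835 had 88.3%, 80.7%, 78.3%, 53.7%, 30.2%, 25.6%, 20.5% and 16.4%. Both were lower on each day than on the day before, and the sequences printed above carry the CpGs behind these values. ZNF534 had 85.7%, 91.7%, 79.5%, 96.3%, 25%, 24.1%, 21.6% and 16.1%, where the value of day 3 rests on 27 reads. In ZNF528 the levels of days 0, 2, 6 and 7 were 90.6%, 75.5%, 23.1% and 14.6%, and in ZNF667 they were 89.2%, 74.2%, 17.5% and 16.1%. On day 7 the 5 kept between 16.1% and 18.8% of day 0, each below the mean of highly methylated zinc finger tiles (20.6%).

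Intermediate promoters ended lower. ZNF726, in the first window, had 51.96%, 49.6%, 39.03%, 53.0%, 20.2%, 26.4%, 9.14% and 9.08% on days 0 to 7. ZNF724, a neighbour in the same window, had 10.6% on day 7, against 43.3% on day 0. ZNF415 had 31.7%, 33.7%, 28.8%, 6.02% and 4.03% on days 0, 1, 2, 6 and 7. The starts of ZNF135, which share most of their CpGs, had 11.9% and 10.9% on day 7, against 63.4% and 61.1% on day 0. ZSCAN18, a SCAN domain zinc finger gene, had 6.897% on day 7, against 68.4% on day 0. All 6 were lower on day 7 than on day 0, and kept 10.1% to 24.4% of it. For these and the highly methylated promoters the Wilson 95% interval reached to either side by a median of 2.95 points on the deep days and 9.83 points on days 3 to 5.

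Of the 49 low promoters, 48 were under 1% on day 7 and 45 on day 0. ZNF580, the one with the most listed CpGs, had 0 of 796 reads methylated on day 7, which allows up to 0.377%, against 0.246% of 812 on day 0. ZNF865 had 0 of 1248 reads methylated on day 7 (up to 0.240%) and 0 of 1359 on day 0 (up to 0.221%). ZNF71 had 0 of 1210 on day 7 (up to 0.248%) and 0 of 1363 on day 0 (up to 0.220%). At the ZNF583 start with the most listed CpGs the counts were 0 of 776 on day 7 (up to 0.387%) and 0 of 924 on day 0 (up to 0.325%). The promoter of ZNF787 had 0 of 1264 reads methylated on day 7 and 0.0654% of 1529 on day 0. None of these 5 had a level above 2% on any of the 8 days. Among these 49 starts of listed genes, a start of ZSCAN5A had the highest day 0 level, 6.60%, and had 0.857% on day 7. The promoter above 1% on day 7 was that of ZNF730, in the first window, where reads were few. It had 3 of 161 reads methylated on day 0, 11 of 73 on day 1, 6 of 146 on day 2, 0 of 106 on day 6 and 5 of 129 on day 7. The Wilson 95% intervals of day 7 (1.67% to 8.75%) and day 0 (0.636% to 5.33%) overlap.

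Other genes within the windows gave a like split, with 9 high, 6 intermediate and 41 low of 56 measured starts. Some share CpGs with the zinc finger promoters above and are no separate evidence: the antisense start of ZNF528-AS1 overlaps that of ZNF528, and LOC105372473 covers the same CpGs as ZNF835. USP29, an imprinted gene of the PEG3 domain, had 11.8% on day 7, against 91.2% on day 0, at 1 start, and 10.2% against 83.7% at the other. LOC107985342 had 19.7% on day 7, against 94.4% on day 0. Among intermediate ones, AURKC, a kinase gene of the germ line, had 10.3% on day 7, against 63.2% on day 0, and A1BG, a plasma glycoprotein gene, had 8.48%, against 75.5%. ZNF331, the imprinted zinc finger gene of the stretch between ZNF813 and ZNF628, is counted neither here nor among the listed zinc finger genes. Its placed start, which lies outside the left-out stretch, was intermediate and had 9.42% on day 7, against 50.3% on day 0. ZNF682, a zinc finger gene of the first window that is not in the list, is also in neither count. Its start was low and had 1.42% on day 7, against 7.98% on day 0.

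**Figure D5:**
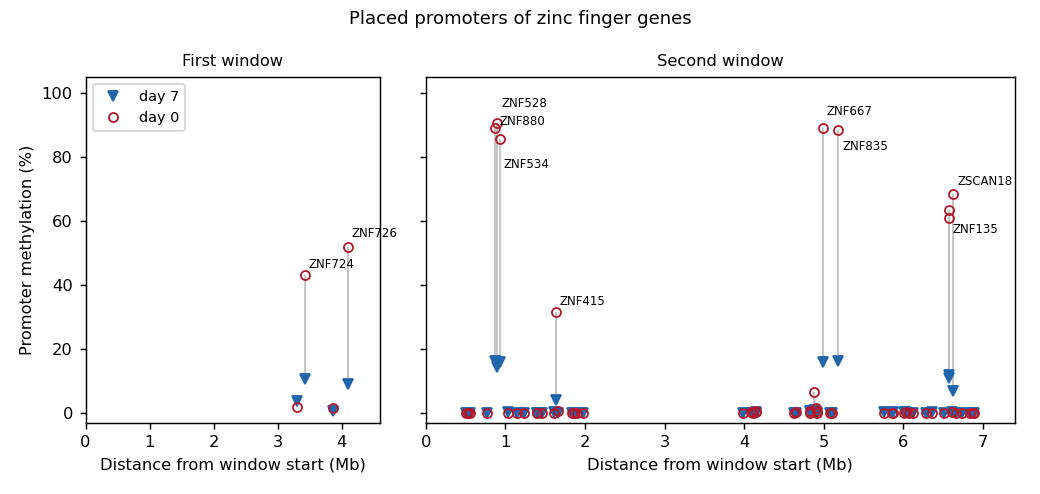
Methylation (%, vertical axis) of the 60 placed promoters of listed zinc finger genes on day 7 (blue triangles) and day 0 (red circles), by distance from the start of each window in Mb. Most lie near 0 on both days. The named genes end between 4.03% and 16.4% on day 7, against 31.7% to 90.6% on day 0.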

How the data were processed

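Genomic DNA of 8 HUES64 libraries, 1 per day, was measured by RRBS. The deposited tables list 1 CpG per line with its methylated and total reads, and a score that, checked over 100% of lines, is the methylated share scaled to 1000. The read counts the authors deposited were used, and their deposited score was left aside. The genome build is hg19, per the submitters' processing notes. How reads were aligned, filtered and called, and whether duplicates were removed, is not given in the sources used here.

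Libraries were joined by position. A tile level is the pooled methylated share of its CpGs that 10 or more reads covered in all 5 deep libraries, and on days 3 to 5 a tile needed 10 reads. The limits of 80% and 20% were applied to reads pooled over days 0 and 1. Each tile was tested on all 263521 autosomal tiles with a quasi-binomial regression on day, its dispersion shrunk by squeezeVar of limma towards a trend and kept at 1 or more, and Benjamini-Hochberg adjustment at 0.05. For matched comparisons, the reference tiles were weighted to the zinc finger tiles over strata of 5 points of starting level and CpG counts of 3-4, 5-9, 10-19, 20-39 and 40 or more, needing at least 5 reference tiles, or 3 where zinc finger tiles were compared with each other. The natural log of the ratio of means was regressed on day, with exact two-sided permutation of the 5 days and adjustment over 11 differences. The steps were tested on simulated data with known changes.

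Days 0 and 1 both set the strata and enter the slopes. Promoters were placed where the CpG offsets of a RefSeq sequence met the listed CpGs at 1 place only on chromosome 19. Of 134 listed zinc finger genes, 114 were in the table, with 133 starts. No hg19 sequence or annotation was used here, so tiles have no exon or intron label.

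Named tiles are, in each window, the 3 highest and 3 lowest in share kept on day 6 among highly methylated tiles with 5 or more CpGs, the 2 CpG-richest of each other class, and the 3 with the most 84-bp pairs. Genes were to be the 5 with the most listed CpGs in each promoter class. Others named were chosen after their values were seen. The windows, gene list and tests were chosen with earlier results of these data known. Alternatives covered read and CpG minimums, tile widths, bins, the reference, coverage and each day left out. Software was Python 3.11.15, numpy 2.4.6, pandas 2.3.3, numba 0.67.0, matplotlib 3.10.9, R 4.3.3 and limma 3.58.1.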

Additional observations from a re-analysis of the deposited data

Results flagged for a closer look

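The change relative to matched tiles of the rest of chromosome 19 was compared between starting classes of the zinc finger tiles. Highly methylated tiles reached 94.5% of the matched rest of chromosome 19 on day 7, and intermediate tiles 101.2%. The log ratio of the first class over the second changed by -0.00936 per day over 5 days, with an exact two-sided permutation p of 0.0167 and an adjusted p of 0.128. This difference was singled out because its own test had an unadjusted p under 0.05, and it did not pass the adjustment over 11 differences. With 120 orders of the days, no difference could pass that adjustment by itself. Against matched tiles of the other autosomes its direction turned, to 0.00181 per day (exact permutation p = 0.0833): highly methylated tiles reached 96.1% and intermediate tiles 95.6% of that reference on day 7.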

How the results depend on the processing

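Each day is 1 library, so no pairing of samples between days was possible. The matched ratios compare sets of tiles within the same library. The slope of the mean level ran from -8.96 to -8.03 points per day with each day left out (-8.95 without day 0 and -8.36 without day 2, where evenly placed days allow no p below 0.0833). Rising zinc finger tiles numbered 0 to 1 over the days left out (1 without day 0) and 1 with 20 reads per CpG.

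For highly methylated tiles all 24 alternatives kept the direction, and the exact permutation p passed below 0.05 with classes from day 1 (-0.0128, p = 0.0417), against the other autosomes (-0.00584, p = 0.0333) and against these with the rest of chromosome 19 (-0.00613, p = 0.0333). With these last references, all tiles at 20% or more gave -0.00683 and -0.00672 (exact permutation p = 0.0333 for both) and the second window gave -0.00518 and -0.0051 (exact permutation p = 0.025 for both). Intermediate tiles depended on the setting. They gave 0.00399 with 20 reads per CpG (exact permutation p = 0.0167), 0.0016 with mean CpG levels (p = 0.0083) and 0.00296 with 500-bp tiles (p = 0.0167), and turned to -0.000085 with classes from day 0, -0.000614 with 2-kb tiles, -0.000639 without the stretch between ZNF813 and ZNF628, and -0.00765 and -0.00721 against the wider references. Tiles with 84-bp spacing gave -0.0172 over all 8 libraries (exact permutation p = 0.0283) and 0.00169 when 2 pairs sufficed. The cause was not tested. Over the 24 alternatives the second window's highly methylated tiles passed in 12, and the class difference passed in 17. Neither passed when a day was left out, where fewer orders remain and, without day 0 or day 2, no p below 0.0833 is possible. The class difference turned to 0.00181 against the other autosomes and 0.00107 against these with the rest of chromosome 19 (exact permutation p = 0.0833 and 0.333).

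Low reads limit days 3 to 5, where single tiles can rest on as few as 6 reads. The stricter placement rule left 28 promoters and the wider one 60.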
